A study of Mus musculus with 11 samples.

Results

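The genes described here are 49 named cell cycle genes of the mouse, all found among the 23337 gene symbols of a count table from adrenal glands. They are a list of gene names chosen with earlier results of these data known, so the share of them that passed is a description and not independent evidence. By textbook role they fall into 19 genes of DNA replication and S phase, 27 genes of mitosis and 3 regulators of the preceding G1 phase. The glands came from male mice of the outbred athymic strain Hsd:Athymic Nude-Foxn1nu, whose Foxn1 mutation leaves them without a normal thymus and so short of T cells, in both groups alike. All mice were inoculated with VCaP cells, a human prostate cancer line, at study week 0 and an age of about 5 to 6 weeks, were allocated at week 7 and were killed at week 15. The intact group (5 samples) kept its testes and the ORX group (6 samples) was orchiectomised, that is, its testes were removed. The labels do not tie each sample to its own mouse, and p-values therefore reflect only sample-to-sample spread, part of which may be technical.

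Cells that leave G1 are driven by D cyclins, which lead to release of the E2F transcription factors. E2F then switches on the genes of DNA replication, such as the Mcm helicase, the enzymes that supply deoxynucleotides and the clamp Pcna. The genes of mitosis follow later, under the DREAM complex and the factors B-Myb and FoxM1, through a promoter element called the CHR. In the adult adrenal cortex a small share of cells divides, mostly in the outer cortex, and the mouse cortex also has a transient inner X-zone that regresses in males at puberty.

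The difference between replication and mitosis genes is visible in their promoters. RefSeq windows on GRCm38.p6, from 250 bases before to 50 bases after the first listed start, were matched for 39 of the 49 genes. E2F letters (TTTCCCGC or TTTGGCGC, either strand) were in 7 of 16 replication windows (43.8%), in 0 of 22 mitosis windows and in 1.63% of the first windows of 27025 genes. These shares hold for the searched forms only. The similar letters TTTCGCGC were not searched and are not marked, though part of them is in capitals where they overlap searched letters. On either strand, they are in the windows of Cdk1, a mitosis gene, and of the replication genes Mcm5, Mcm6 and Mcm7. CHR letters (TTTGAA, either strand) were in 16 of 22 mitosis windows (72.7%), in 2 of 16 replication windows (12.5%) and in 18.1% of all genes. The letters CCAAT, bound by NF-Y, were in 19 of 22 mitosis windows (86.4%), in 9 of 16 replication windows (56.2%) and in 37.9% of all genes. All 16 mitosis windows with the CHR letters also held CCAAT (72.7%, against 7.12% of all genes). In 7 of these 16 the CHR letters lay wholly before the start, and in the other 9 they overlapped or followed it. Of all 27025 genes, 4398 had the CHR letters before the start and 495 only overlapping or after it. A match of letters is a description of the sequence and not evidence of binding. The windows of Ccnd1, Ccnd2, Ccne2, Gins2, Mcm4, Aurkb, Ccna2, Foxm1, Tpx2 and Kif20a were not matched.

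The 150 bases before the start are given here, 5′ to 3′ on the strand of the gene, for 3 replication genes and 5 mitosis genes. They were chosen to show both motif types and the cases of rising genes without them. Capitals mark E2F, CHR or CCAAT letters on either strand, so that GCGCCAAA, TTCAAA and ATTGG are the reverse forms of an E2F, the CHR and CCAAT letters.
Mcm5 (chr8:75109359-75109508, plus strand): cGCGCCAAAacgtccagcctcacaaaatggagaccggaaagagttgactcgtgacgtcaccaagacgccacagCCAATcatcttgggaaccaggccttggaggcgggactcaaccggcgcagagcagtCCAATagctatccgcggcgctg
Mcm6 (chr1:128359706-128359855, minus strand): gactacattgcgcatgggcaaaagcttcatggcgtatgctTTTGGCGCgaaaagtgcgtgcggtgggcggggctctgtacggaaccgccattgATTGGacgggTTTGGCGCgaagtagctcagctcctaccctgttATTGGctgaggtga
Rrm2 (chr12:24708104-24708253, plus strand): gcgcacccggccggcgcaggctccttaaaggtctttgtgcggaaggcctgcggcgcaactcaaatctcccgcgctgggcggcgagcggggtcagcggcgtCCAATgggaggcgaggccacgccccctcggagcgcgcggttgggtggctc
Cdk1 (chr10:69352913-69353062, minus strand): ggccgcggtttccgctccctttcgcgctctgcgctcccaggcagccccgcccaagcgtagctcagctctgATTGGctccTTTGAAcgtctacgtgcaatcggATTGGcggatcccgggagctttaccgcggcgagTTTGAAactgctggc
Cdc20 (chr4:118437344-118437493, minus strand): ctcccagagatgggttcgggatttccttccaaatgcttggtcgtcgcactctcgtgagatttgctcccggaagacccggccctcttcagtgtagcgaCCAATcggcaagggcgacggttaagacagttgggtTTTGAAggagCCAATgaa
Top2a (chr11:99024190-99024339, minus strand): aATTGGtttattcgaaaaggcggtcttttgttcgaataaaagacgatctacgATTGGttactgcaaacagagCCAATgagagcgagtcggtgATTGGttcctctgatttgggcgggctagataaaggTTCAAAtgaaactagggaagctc
Ube2c (chr2:164769779-164769928, plus strand): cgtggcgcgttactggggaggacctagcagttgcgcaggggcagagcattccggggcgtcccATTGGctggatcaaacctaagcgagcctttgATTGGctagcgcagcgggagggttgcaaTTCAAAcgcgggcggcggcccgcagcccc
Bub1 (chr2:127831860-127832009, minus strand): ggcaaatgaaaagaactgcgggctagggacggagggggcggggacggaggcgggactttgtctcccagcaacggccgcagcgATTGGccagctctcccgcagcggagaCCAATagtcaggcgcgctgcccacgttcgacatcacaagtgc
Mcm6 shows the E2F letters 2 times and Mcm5 1 time. Cdk1 shows the CHR letters 2 times, and Cdc20, Top2a and Ube2c show them 1 time each, all with CCAAT letters in the same stretch. Rrm2 and Bub1, which both rose in ORX, hold CCAAT letters but neither of the other motifs in these bases.

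Expression was measured as read counts per gene, with 11368447 to 15029582 counts per library and 16373 to 16829 genes with a count. Levels are given as CPM, counts divided by a library size that was scaled by the TMM method. Cortex markers were abundant in each library (summed CPM of 10 genes 35763.7 to 80545.1 in intact and 63316.3 to 96042.9 in ORX). Across all 14139 tested genes 878 (6.21%) passed edgeR's quasi-likelihood test at a Benjamini-Hochberg adjusted p under 0.05, of which 428 (3.03%) were higher and 450 (3.18%) were lower after orchiectomy. Some libraries differed from their group by transcript length over the cell cycle genes, and the part of this in the results was not tested. The median deviation of ORX 6 from the other ORX libraries was 0.32 (log2 CPM) over the 16 tested members with the shortest transcripts and -0.39 over the 16 with the longest. In intact 2 the deviation from the other intact libraries went the other way, with 0.14 over the shortest and 0.63 over the longest. Library intact 4 was the shallowest and was low for most mitosis genes.

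Cell cycle genes were scarce in the gland: the median member had 3.14 CPM, against 27.5 CPM for the median tested gene, and 31 of the 49 lay under 5 CPM. Ccnb1 and Ttk were too low to test, and 47 were tested. Of these, 6 rose in ORX (12.8%, against 3.03% of all tested genes), 1 fell, and 40 did not pass the test. The 6 that rose were Bub1, Aurka, Nusap1 and Cdc20 of the mitosis genes and Rrm2 and Bard1 of the replication genes, and the G1 cyclin Ccnd2 fell. At an unadjusted p under 0.05, 24 members were higher (10.7% of all tested genes were) and 2 lower (12.2% were). The groups did not overlap for 10 members, each higher in ORX, a state found for 2.92% of all tested genes (5.28% counting both directions). However, 9 of the tested members, among them Bub1, Bard1, Tk1 and Kif4, reached the filter's minimum in fewer than 5 intact libraries and were tested because of their ORX levels. Without any filter on low counts, so that each member has a value, the log2 fold change was above 0 for 25 of 27 mitosis genes, 14 of 19 replication genes and 0 of 3 G1 regulators, against 49.8% of 18746 genes. The median without the filter was 0.76 for the mitosis genes, 0.14 for the replication genes and -0.00 for all genes. With the filter, 37 of the 47 tested members were above 0, against 51.3% of all tested genes.

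**Figure D1:**
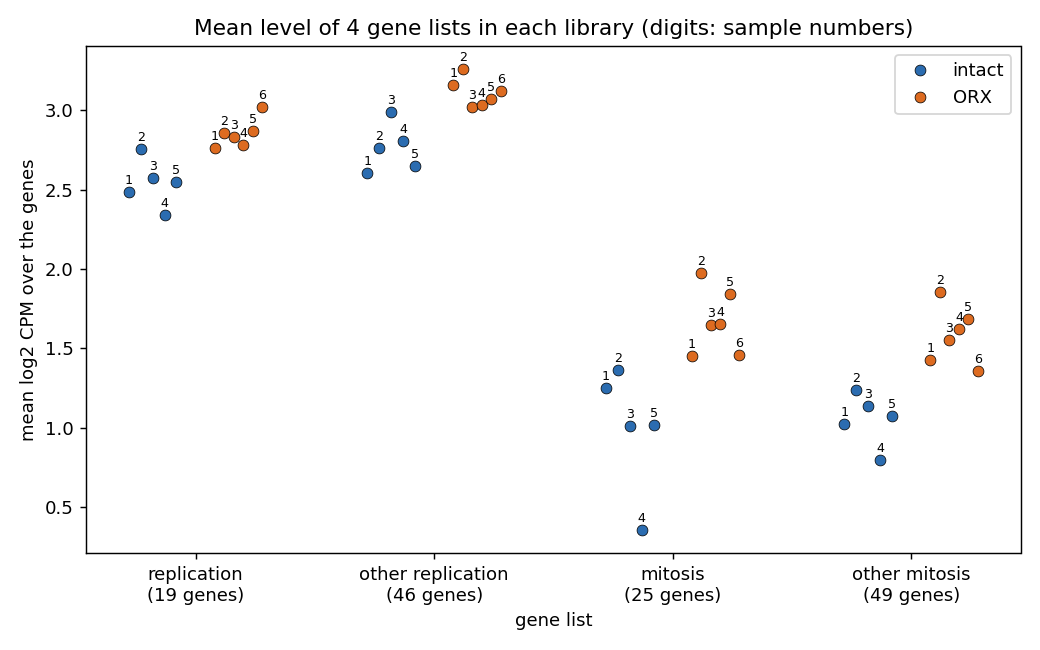
Each point is 1 library (intact blue, ORX orange, digits give the sample number), and the vertical axis is the mean log2 CPM over the tested genes of 4 lists. For the mitosis genes the intact libraries reach 1.36 and the ORX libraries start at 1.45, and intact 4 lies lowest at 0.35. The means include genes that were tested because of their ORX levels.

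The plot of mean levels by library gives this per sample. The mean log2 CPM of the 25 tested mitosis genes was 1.25, 1.36, 1.01, 0.35 and 1.02 in intact 1 to 5, and in ORX it ran from 1.45 through a median of 1.65 to 1.97. Intact 4 was the lowest library and ORX 2 the highest. This mean includes Bub1, Melk, Kif4, Ccnb2, Aurkb, Bub1b and Birc5, which were tested because of their ORX levels. The gap between the groups is therefore a description and not support for a difference. Without intact 4, 22 of 25 mitosis genes were above 0 and their median log2 fold change was 0.63, against 0.77 with it. The mean of the 19 replication genes was 2.49, 2.76, 2.57, 2.34 and 2.55 in intact 1 to 5 and 2.76, 2.85 and 3.02 (lowest, median, highest) in ORX. The groups just failed to meet for replication (2.757 in intact 2, 2.761 in ORX 1). This narrow gap rests on Tk1 and Bard1, which were tested because of their ORX levels. Their log2 CPM was -0.43 and -0.27 in intact 2, and 0.79 and 0.85 in ORX 1. No test is given for these means, since the genes were chosen with earlier results in view.

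Among the cyclins, kinases and transcription factor of mitosis, 8 of 10 were tested, all 8 had a log2 fold change above 0 (0.15 to 1.13), and 1 passed. Aurka, the kinase that matures centrosomes and the spindle poles (chromosome 2, 172356190 to 172370535, GENCODE M21 on GRCm38), was at 1.68, 0.935, 1.46, 0.837 and 1.82 CPM in intact 1 to 5 and at 2.08, 3.02 and 4.0 CPM (lowest, median, highest) in ORX. Each ORX library was thus above each intact one, and Aurka rose by a log2 fold change of 1.13 ± 0.29 (SE; edgeR adjusted p = 0.0369). Cdk1, the kinase that starts mitosis (chromosome 10, 69335146 to 69352938), was at 1.90, 2.55, 2.85, 1.26 and 2.43 CPM in intact and at 2.89, 4.42 and 5.93 CPM in ORX. Its groups did not overlap either, but the difference of 1.0 ± 0.30 missed the threshold (edgeR adjusted p = 0.0628). Ccnb1, a cyclin partner of Cdk1, had 2, 1, 2, 3 and 5 counts in intact 1 to 5 and 3 to 8 in ORX, which overlap. It did not pass the filter, and without the filter its log2 fold change was 0.85 (edgeR adjusted p = 0.378). Ttk, a spindle checkpoint kinase, had 0 to 9 counts in intact and 6 to 15 in ORX, and without the filter its log2 fold change was 1.23 (edgeR adjusted p = 0.229). Ccnb2, the other B cyclin of the list, was at 1.36 ± 0.47 CPM in intact and 2.64 ± 0.71 CPM in ORX (SD, n = 5 and 6; edgeR adjusted p = 0.0796). The remaining kinases, Ccna2 and Foxm1 lay between 0.15 (Foxm1) and 0.84 (Melk) on the log2 scale, and none of them passed. Foxm1, itself a driver of this gene set, was at 5.20 ± 1.81 CPM in intact and 5.77 ± 1.94 in ORX.

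**Figure D2:**
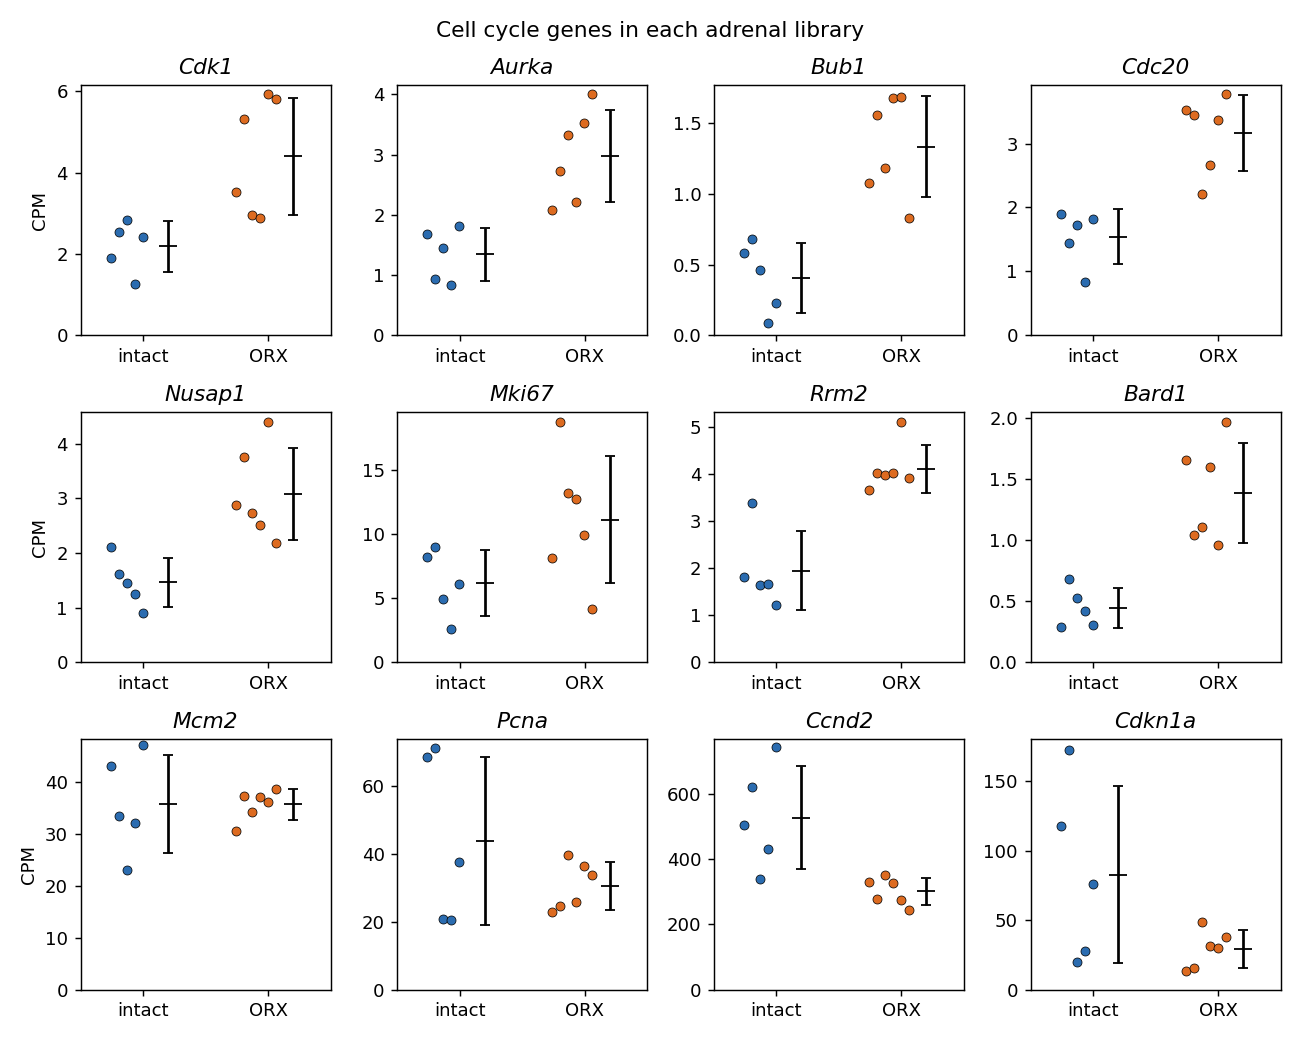
Each point is 1 library (intact blue, ORX orange) and the vertical axes are CPM from 0 for 12 genes, and a black bar gives mean ± SD. The groups do not overlap for Cdk1, Aurka, Bub1, Cdc20, Nusap1, Rrm2 and Bard1, and they overlap for Mki67, Mcm2, Pcna, Ccnd2 and Cdkn1a.

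The checkpoint and anaphase genes had 2 of 4 members that rose. Bub1, a kinase of the spindle checkpoint (chromosome 2, 127801122 to 127831865), was at 0.583, 0.680, 0.464, 0.0837 and 0.227 CPM in intact, or 1 to 8 counts, and at 0.829, 1.37 and 1.68 CPM in ORX, or 11 to 24 counts. The groups lay apart, and Bub1 rose by 1.68 ± 0.41 (edgeR adjusted p = 0.0299), although no intact library reached the filter's minimum. Cdc20, which activates the anaphase-promoting complex (chromosome 4, 118432901 to 118437352), was at 1.90, 1.44, 1.72, 0.837 and 1.82 CPM in intact and at 2.21, 3.40 and 3.77 CPM in ORX. It rose by 1.03 ± 0.27 (edgeR adjusted p = 0.0380), again without overlap, but its exons overlap Elovl1 on the other strand, whose reads may be counted with it. Bub1b, the checkpoint partner of Bub1, and Ube2c, a ubiquitin-conjugating enzyme of anaphase, were at 0.86 ± 0.38 and 0.70 ± 0.30 and did not pass (edgeR adjusted p = 0.195 and 0.176).

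The 7 spindle and cytokinesis genes all had a log2 fold change above 0 (0.27 to 1.06), and 1 of them passed. Nusap1, which bundles spindle microtubules (chromosome 2, 119618298 to 119651244), was at 2.11, 1.61, 1.46, 1.26 and 0.909 CPM in intact and at 2.19, 2.80 and 4.40 CPM in ORX. The lowest ORX library, ORX 6, was just above the highest intact library, intact 1, and Nusap1 rose by 1.06 ± 0.28 (edgeR adjusted p = 0.0431). Its exons overlap Oip5 on the other strand. Kif4, a chromosome motor protein gene, was at 0.729, 1.27, 0.994, 0.418 and 1.21 CPM in intact and at 1.43, 1.72 and 2.60 CPM in ORX. The groups did not overlap, but 1.03 ± 0.31 did not pass (edgeR adjusted p = 0.0706). The spindle factor Tpx2 (0.78 ± 0.25), the motor genes Kif20a (0.68 ± 0.25), Kif11 (0.40 ± 0.27) and Kif23 (0.27 ± 0.24), and the midzone bundler Prc1 (0.55 ± 0.22) did not pass either.

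Mki67 and Top2a, the usual markers of dividing cells, did not pass. Mki67 (chromosome 7, 135689784 to 135716361) was at 8.24, 9.01, 4.97, 2.59 and 6.14 CPM in intact and at 4.15, 11.3 and 18.7 CPM in ORX. The groups overlapped, with ORX 6 below 4 of the 5 intact libraries, and the log2 fold change was 0.85 ± 0.37 (edgeR adjusted p = 0.194). Top2a, the topoisomerase that untangles chromosomes, was at 5.83, 7.99, 3.71, 1.17 and 3.94 CPM in intact and at 4.83, 8.08 and 11.4 CPM in ORX (log2 0.88 ± 0.38; edgeR adjusted p = 0.181). Both have long transcripts, and both were low in ORX 6, by 1.5 and 0.87 log2 units under the other ORX libraries. Without ORX 6 the log2 fold change was 1.02 for Mki67 and 1.0 for Top2a, and neither passed (edgeR adjusted p = 0.083 and 0.132). Leaving out other single libraries moved the values the other way too, down to 0.62 for Mki67 and 0.63 for Top2a. Neither gene passed in any of these fits (edgeR adjusted p up to 0.384 and 0.329).

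Of the 4 kinetochore and passenger genes 0 passed (edgeR, 0 also at an unadjusted p under 0.05), and whether they differed from the other mitosis genes was not tested. Cenpa, the histone variant of centromeres, was at -0.19 ± 0.41 on the log2 scale, the kinetochore motor Cenpe at -0.09 ± 0.34 and the kinetochore protein Cenpf at 0.12 ± 0.34 (edgeR adjusted p 0.822 or above). Cenpe and Cenpf were lowest in intact 4 (0.837 and 1.17 CPM) and highest in intact 1 (3.57 and 4.45 CPM), so that the ORX values fell inside the intact range for both. Birc5, the chromosomal passenger protein survivin, was at 0.72 ± 0.35 and did not pass (edgeR adjusted p = 0.236).

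**Figure D3:**
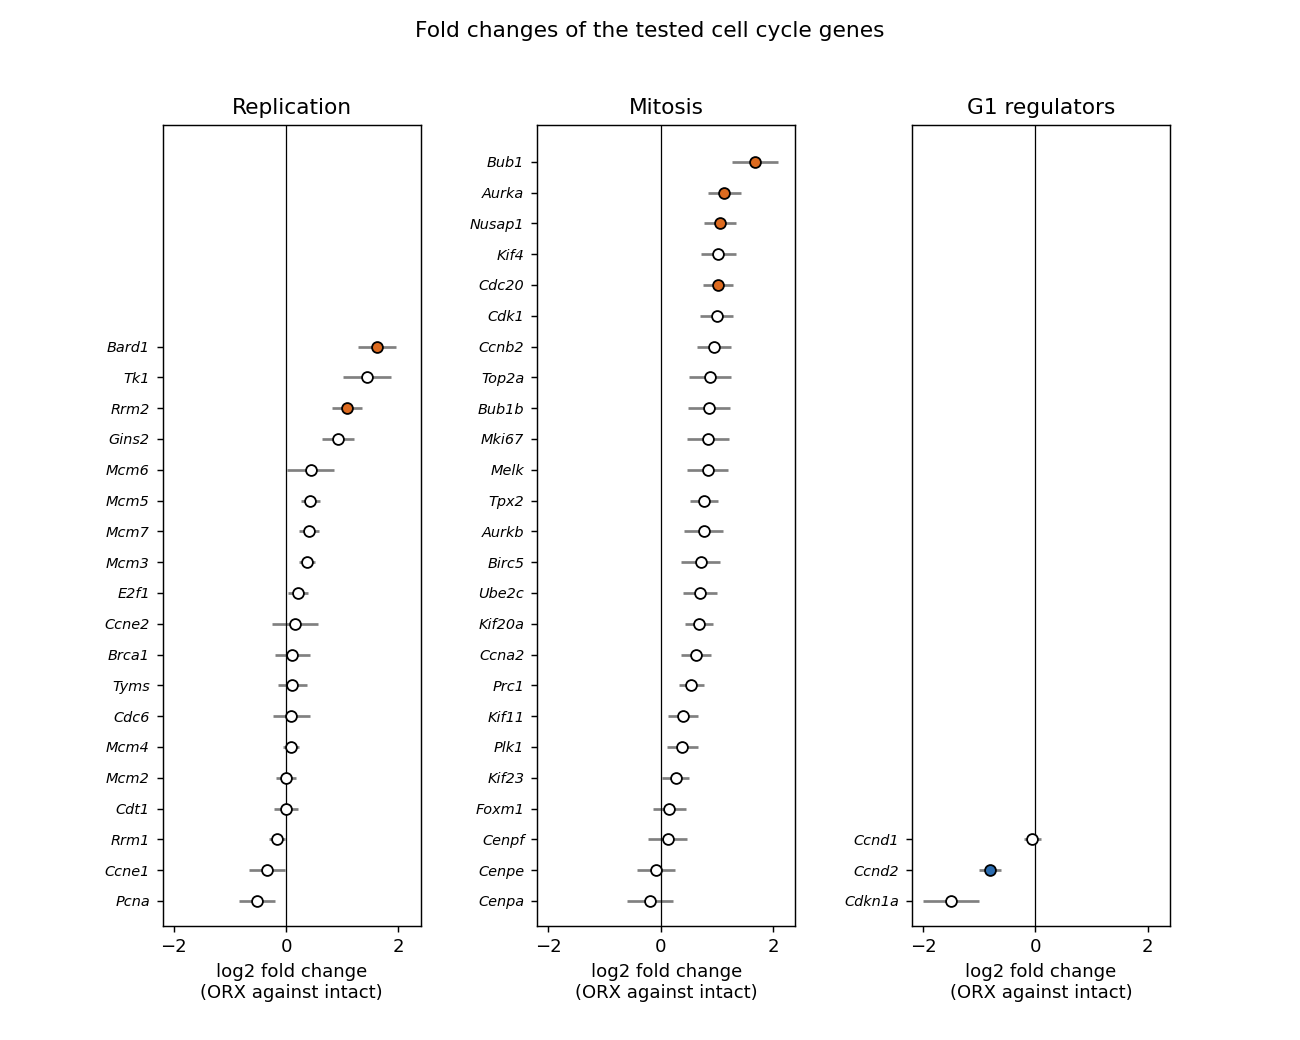
Circles place the 47 tested genes by their log2 fold change, ORX over intact, with horizontal bars for the SE, and are filled orange where it passed as higher, blue where it passed as lower and open where it did not pass. Of the mitosis genes 23 of 25 lie right of 0, while the replication genes run from -0.52 (Pcna) to 1.63 (Bard1).

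Of the 19 replication genes 2 passed. Of the 10 genes of origin licensing, the helicase and the clamp, 0 passed (edgeR; 4 at an unadjusted p under 0.05, namely Mcm3, Mcm5, Mcm7 and Gins2), and the log2 fold changes ran from -0.52 to 0.92. Mcm2, a subunit of the helicase (chromosome 6, 88883474 to 88898780), was at 43.0, 33.4, 23.1, 32.1 and 47.0 CPM in intact and at 30.5, 36.6 and 38.7 CPM in ORX. The ORX values lay inside the intact range, and the log2 fold change was -0.00 ± 0.17 (edgeR adjusted p = 0.996). Mcm3 (chromosome 1, 20802968 to 20820312) was at 15.8, 16.1, 14.0, 14.8 and 13.3 CPM in intact and at 17.0, 18.4 and 24.3 CPM in ORX. Its groups did not overlap, yet 0.38 ± 0.14 did not pass (edgeR adjusted p = 0.132). Mcm5 (0.43 ± 0.17) and Mcm7 (0.41 ± 0.17) were close to Mcm3 and also did not pass, and Mcm4 was at 0.09 ± 0.15. Mcm6, another helicase subunit, was at 9.48, 16.0, 13.4, 2.68 and 21.9 CPM in intact and at 6.19, 19 and 21.8 CPM in ORX. Intact 4 and ORX 3 were each far below the rest of their group, and 0.44 ± 0.42 did not pass (edgeR adjusted p = 0.576). The licensing factors Cdc6 (0.09 ± 0.33) and Cdt1 (-0.00 ± 0.21) were near 0, while the helicase activator Gins2 was at 0.92 ± 0.29 (edgeR adjusted p = 0.0723). Pcna, the sliding clamp of the polymerases (chromosome 2, 132249162 to 132253314), was at 68.6, 71.2, 20.9, 20.5 and 37.6 CPM in intact and at 22.8, 29.9 and 39.8 CPM in ORX. Only intact 1 and 2 lay above all ORX libraries, and -0.52 ± 0.32 did not pass (edgeR adjusted p = 0.370). The annotation names pseudogenes for Pcna, Tyms, Ccnb1, Ccnb2 and Kif4, between which and the gene the counting could have split reads. Exons on the other strand also overlap Gins2 (Gse1), Kif4 (Pdzd11) and Ccnd1 (LTO1), and other genes overlap Mcm7, Ccne2, Ccna2, Plk1, Ube2c, Prc1 and Kif20a.

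Of the 4 genes that supply deoxynucleotides, 1 rose. Rrm2, the cell cycle-regulated subunit of ribonucleotide reductase (chromosome 12, 24708241 to 24714146), was at 1.82, 3.40, 1.66, 1.67 and 1.21 CPM in intact and at 3.66, 4.0 and 5.13 CPM in ORX. Each ORX library exceeded each intact one, and Rrm2 rose 2.11-fold (log2 1.08 ± 0.27; edgeR adjusted p = 0.0317). Rrm1, the subunit of the same enzyme that is less bound to S phase, was at 35.9 ± 6.45 CPM in intact and 32.0 ± 2.36 CPM in ORX (log2 -0.17 ± 0.14; edgeR adjusted p = 0.512). Tk1, the S-phase thymidine kinase, was at 0.583, 0.595, 0.927, 0.167 and 0.682 CPM in intact and at 1.07, 1.31 and 3.47 CPM in ORX. The groups did not overlap, but 1.44 ± 0.43 did not pass (edgeR adjusted p = 0.0651), and ORX 6 alone held 46 of its counts, against 14 to 22 in the other ORX libraries. Its exons overlap Afmid on the other strand. Tyms, thymidylate synthase, was at 0.11 ± 0.26.

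The genes of the G1/S switch did not pass. Ccne1, the E cyclin that starts S phase, was at 8.46, 10.4, 13.8, 10.6 and 10.8 CPM in intact and at 4.89, 6.25 and 15.6 CPM in ORX, with ORX 3 and ORX 6 at or above most intact libraries and the other 4 below all of them (log2 -0.34 ± 0.31; edgeR adjusted p = 0.555). Ccne2 was at 0.16 ± 0.41 and ranged over the ORX libraries from 0.377 CPM in ORX 6 to 3.46 CPM in ORX 3. The transcription factor gene E2f1 was at 11.9 ± 2.64 CPM in intact and 13.8 ± 1.89 CPM in ORX (log2 0.21 ± 0.18). Of the repair partners, Bard1 (chromosome 1, 71027498 to 71103146) was at 0.292, 0.680, 0.530, 0.418 and 0.303 CPM in intact, or 4 to 8 counts, and at 0.961, 1.35 and 1.96 CPM in ORX, or 12 to 26 counts. The groups lay apart, and Bard1 rose by 1.63 ± 0.34 (edgeR adjusted p = 0.0132), although no intact library reached the filter's minimum. Its partner Brca1 was at 0.11 ± 0.31 (edgeR adjusted p = 0.864).

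**Figure D4:**
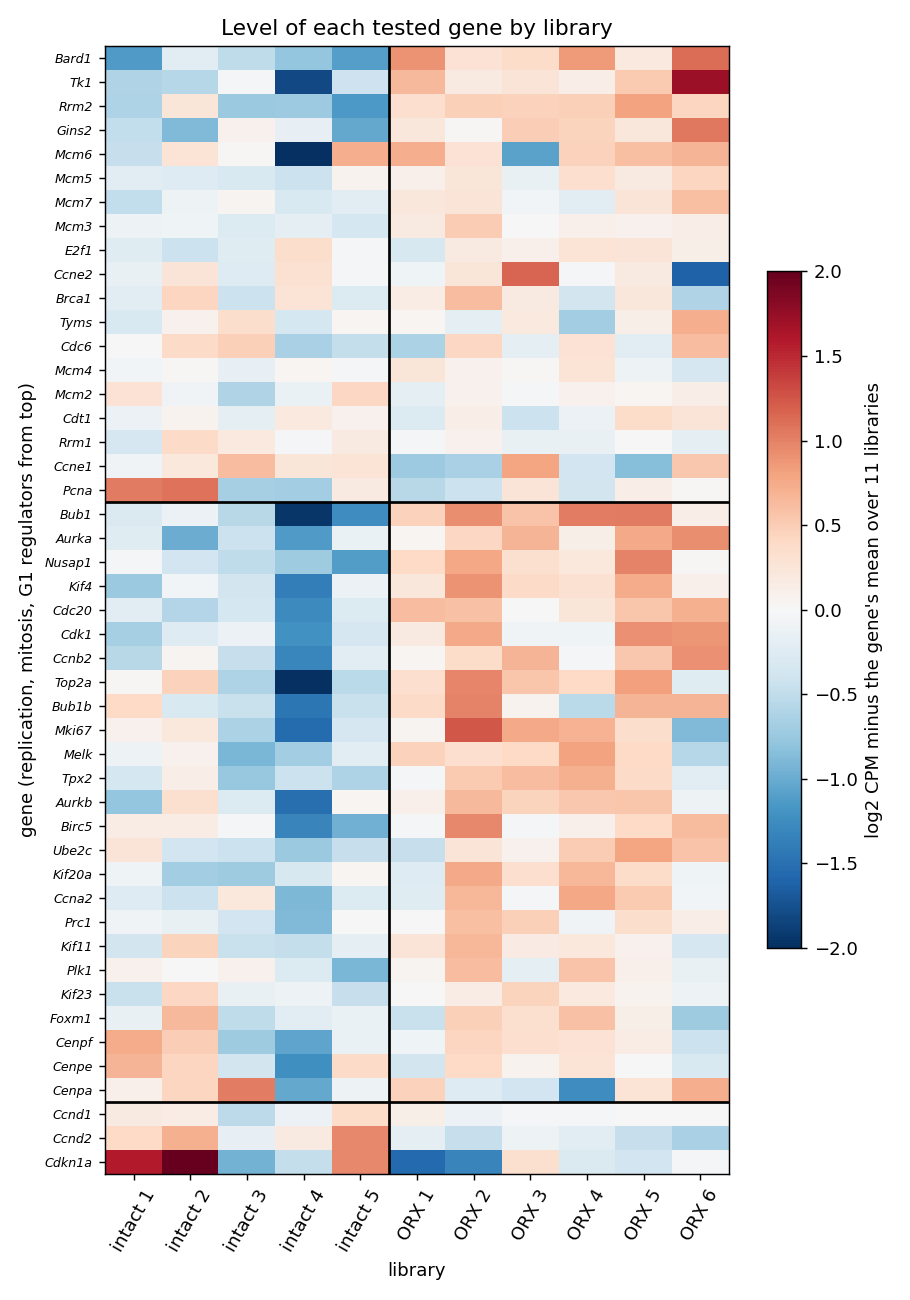
Rows are the 47 tested genes (replication, mitosis and G1 regulators from the top, each ordered by fold change), columns are the 11 libraries, and colour is log2 CPM minus the gene's mean over the libraries. Intact 4 is low for most mitosis genes, Mcm6 is low in intact 4 and ORX 3, and Cdkn1a is high in intact 1, 2 and 5.

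Of the 3 G1 regulators 1 passed. Ccnd2, a D cyclin (chromosome 6, 127125162 to 127152193), was at 503, 622, 337, 430 and 741 CPM in intact and at 243, 302 and 352 CPM in ORX. Only intact 3 fell inside the ORX range, and Ccnd2 fell by 0.81 ± 0.20 on the log2 scale (edgeR adjusted p = 0.0292). The exons of Ccnd2 overlap 9330179D12Rik and Gm43126 on the other strand, and those of Cdkn1a overlap AC167363.2. Its sister Ccnd1 was at 114, 111, 70.3, 92.5 and 130 CPM in intact and at 92.7, 99.5 and 109 CPM in ORX, with the ORX values inside the intact range (log2 -0.05 ± 0.15; edgeR adjusted p = 0.876). Cdkn1a, the gene of the CDK inhibitor p21 and a target of p53 (chromosome 17, 29090976 to 29100727), was at 117, 172, 20.1, 27.9 and 76.1 CPM in intact and at 13.1, 30.6 and 48.4 CPM in ORX. Intact 1, 2 and 5 lay above all ORX libraries and intact 3 and 4 among them, and -1.49 ± 0.50 did not pass (edgeR adjusted p = 0.0941). The same 3 libraries were the intact ones with the highest Pcna, another p53 target. Whether p53 had a part in this pattern among the intact libraries was not tested, and the comparison between groups does not address it. Over a list of 12 other p53 targets 0 passed in either direction (median log2 -0.04; edgeR, 0 also at an unadjusted p under 0.05), and the p53 regulator Mdm2 was at -0.04 ± 0.12. Per kilobase of exon, Ccnd2 had the highest level of the 49 genes in both groups, 56.0 CPM per kilobase in intact and 32.0 in ORX, followed in intact by Cdkn1a (23.3) and Ccnd1 (22.0), and in ORX by Ccnd1 (21.3).

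Of 46 tested genes in a list of further replication genes, 4 rose and 0 fell, and 41 had a log2 fold change above 0 (median 0.37). Over all tested genes 3.03% rose, 51.3% were above 0 and the median was 0.01. Cdc45, which joins the Mcm helicase to form its active state, averaged 6.31 ± 1.15 CPM in intact and 12.0 ± 1.58 CPM in ORX (SD), and rose by 0.92 ± 0.18 (edgeR adjusted p = 0.00956). The dUTPase gene Dut (1.02 ± 0.24), the histone chaperone gene Chaf1b (1.25 ± 0.30) and the polymerase subunit gene Pola2 (0.54 ± 0.15) rose too (edgeR adjusted p 0.0440 or below), with no overlap between the groups for Chaf1b and Pola2. Of 49 tested genes in a list of 58 further mitosis genes, 6 rose and 0 fell, and 44 had a log2 fold change above 0 (median 0.55). Without the filter on low counts, 52 of the 58 were above 0 (median 0.56). Scarce genes of this list, such as Pbk, and of the list of further replication genes may have been tested because of their ORX levels. How many were is not given here. Pbk, a mitotic kinase, averaged 0.739 ± 0.214 CPM in intact and 2.14 ± 0.212 CPM in ORX, and rose by 1.52 ± 0.26 (edgeR adjusted p = 0.00451). Ckap2, a spindle protein gene (1.58 ± 0.32), Iqgap3, a scaffold protein gene (1.46 ± 0.33), and Cks1b, which encodes a CDK-binding subunit (0.92 ± 0.21), also rose (edgeR adjusted p 0.0235 or below). Of 25 further G1 regulators 1 passed, against 6.21% of all tested genes, and 15 were above 0 (median 0.12). Cdkn1c, the imprinted CDK inhibitor p57, was at 90.3, 84.5, 51.2, 143 and 68.2 CPM in intact and at 272, 295 and 443 CPM in ORX. Cdkn1c thus rose by 1.86 ± 0.24 without overlap (edgeR adjusted p = 0.000719), while its relative Cdkn1b was at 0.12 ± 0.22 (edgeR adjusted p = 0.783).

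Markers of several cell types moved with these genes, and their part in the result was not tested. In a whole gland, fewer cells of a type and less RNA per cell cannot be told apart. For comparison, 3.03% of all tested genes rose, 3.18% fell and 2.92% were higher in ORX without overlap. At an unadjusted p under 0.05 (edgeR), 10.7% were higher and 12.2% lower. With lists this short, a single gene that passed says little about its list. Of 10 cortex markers 3 rose (Cyp21a1, Hsd3b1 and Mc2r), each without overlap between the groups, and 4 were higher and 1 lower at an unadjusted p under 0.05. All 3 X-zone markers (Akr1c18, Pik3c2g and Thrb) rose, with a summed level of 28.7 to 40.2 CPM in intact and 831 to 2911 CPM in ORX. Of 11 medulla markers 1 (Slc18a2) fell, 6 were lower at an unadjusted p under 0.05 and 9 had a log2 fold change below 0, and the sums were 11634 to 27439 CPM in intact and 6284 to 16236 CPM in ORX. Of 9 endothelial markers 1 (Eng) fell, 6 were lower at an unadjusted p under 0.05 and 8 were below 0. Of 10 stromal markers 1 (Pdgfrb) fell, 3 were lower at an unadjusted p under 0.05 and 6 were below 0. Of 11 lymphocyte markers 4 reached the test and 0 passed (edgeR), with 2 higher at an unadjusted p under 0.05. Their summed level was 3.11 to 6.03 CPM in intact and 6.03 to 13.0 CPM in ORX, and the T cell genes Cd3d and Cd8a had 3 and 0 counts over all intact libraries and 3 and 15 over all ORX libraries. The B cell genes Cd79a and Cd79b had 31 and 46 counts in intact and 102 and 139 in ORX. Of 9 macrophage markers 0 passed (edgeR, also 0 at an unadjusted p under 0.05), and their summed levels overlapped (249 to 543 CPM in intact, 294 to 522 CPM in ORX).

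**Figure D5:**
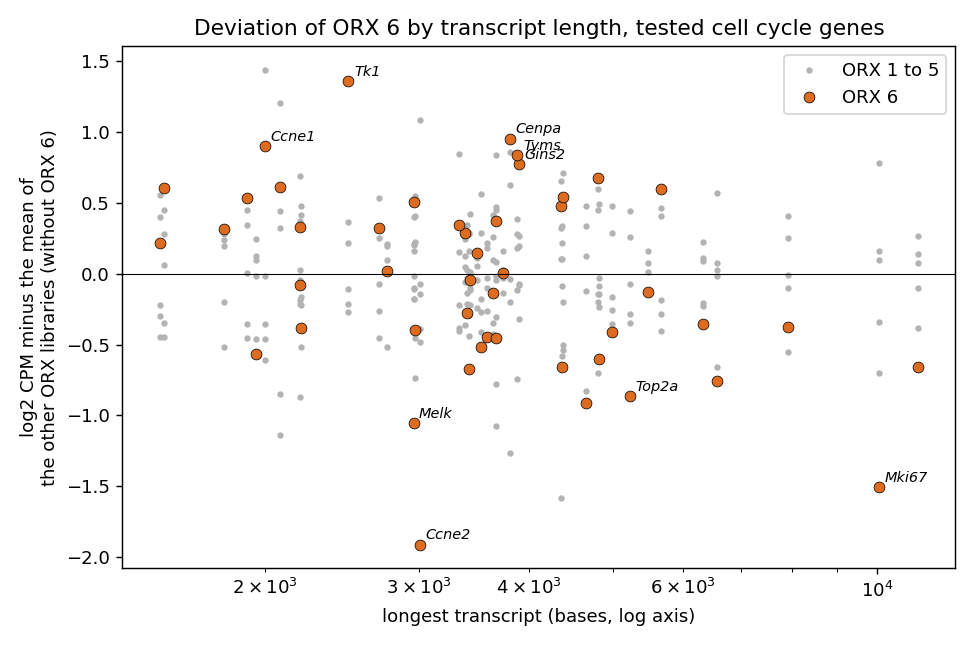
Each orange point is 1 tested cell cycle gene in ORX 6 and each grey point the same gene in ORX 1 to 5, placed by transcript length in bases (longest isoform, log axis) and by log2 CPM minus the mean of the ORX libraries other than ORX 6 and the library itself. In ORX 6, Mki67 lies at -1.5 and Tk1 at 1.36.

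Leaving out each library in turn moved several adjusted p-values across the threshold. Bard1 passed whichever of the 11 libraries was left out (edgeR adjusted p up to 0.0459). However, no intact library reached the filter's minimum for Bard1, which was tested because of its ORX levels. The other calls were each lost in some of these 11 fits, with edgeR adjusted p up to 0.111, while the log2 fold changes kept their direction. These ran from 0.95 to 1.37 for Rrm2, 0.99 to 1.26 for Aurka, 1.42 to 1.92 for Bub1, 0.86 to 1.11 for Cdc20, 0.93 to 1.23 for Nusap1 and -0.95 to -0.65 for Ccnd2. Rrm2 still passed without intact 2, ORX 3 or ORX 6, Aurka without ORX 1, 3 or 4, and Nusap1 without intact 1, ORX 3 or ORX 6, and each was lost without any other library. Bub1 still passed without intact 2, 3 or 4 or ORX 3 or 6, Ccnd2 without intact 3 or 4 or ORX 3, 4 or 6, and Cdc20 without intact 3 or ORX 3, and each was lost without any other library. Without ORX 6, 23 of 25 mitosis genes and 12 of 19 replication genes kept a log2 fold change above 0.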

How the data were processed

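Adrenal RNA was sequenced in 11 samples, 5 intact and 6 ORX. Libraries were made with Illumina TruSeq reagents, per the labels' protocols, which name both a stranded and an unstranded guide, so it is unclear whether strand was kept. The authors deposited raw counts of reads for each gene symbol. The submitters' processing notes list bcl2fastq 1.8.4, Subread 1.5.1 and mm10 without roles. Annotation and strand setting were not stated in these sources. The table stands in the file 2 times with identical values, and the first copy was used.

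Genes passing filterByExpr (minimum count 10, minimum total 15) were kept, which left 14139. Library sizes were TMM-scaled, and edgeR 4.0.16 under R 4.3.3 gave the tests (glmQLFit and glmQLFTest, two-sided, groups only), and p-values were Benjamini-Hochberg adjusted across these genes with a threshold of 0.05. SE values come from the log2 fold change and the F statistic of its test. Means over lists used log2 CPM with a prior count of 2. Replicate libraries differed by more than sampling noise (chi-square over degrees of freedom at least 25.5). Running numbers in the sample descriptions follow the groups, and what they mark is not stated. Members and lists were chosen with earlier results of these data known. Values are given for each intact library, and as lowest, median and highest over ORX (for Ccnb1 as counts, with the ORX range), for members that passed, those whose groups did not overlap, the 3 smallest p in each class, and Mki67, Top2a, Cdk1, Ccnb1, Mcm2, Pcna, Rrm2, Ccne1, Ccnd1, Ccnd2 and Cdkn1a. From other cell cycle lists up to 4 genes that passed are named, by smallest p. Mcm6, Mdm2, Cdkn1b and the lymphocyte genes were singled out after their values were seen. The table held 275 of 276 listed genes, including 6 by older symbols. With edgeR 0 of 3 tested erythroid, 0 of 8 adipose and 0 of 3 tested kidney and liver markers passed. At an unadjusted p under 0.05 (edgeR) these were 0, 0 and 2, the 2 being higher in ORX. The summed kidney and liver level was 1.84 to 38.1 CPM in intact and 2.08 to 233 CPM in ORX. The mean log2 CPM of the 3 tested ones was highest in ORX 6 (5.67). The part of such tissue in the results was not tested. Gene positions follow the GENCODE M21 annotation of GRCm38. Alternatives were RLE scaling, no filter, at least 1 CPM in 5 libraries, DESeq2 1.42.0, voom from limma 3.58.1 with sample weights, each library left out, the sample number as a block and, chosen after seeing the data, intact 4 and ORX 6 left out together.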

Additional observations from a re-analysis of the deposited data

Results flagged for a closer look

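In each tested member, 1 library was set against the rest of its group, and 10 of 94 such groups held a library far from the others; chance gives about 1 in 20. The measure is the gap from that library to the nearest other, divided by the range of the group. In ORX 2, Mcm3 was at 24.3 CPM against 17.0 to 19.4 in the other ORX libraries (0.677 of the range). In ORX 3, Mcm6 was at 6.19 CPM against 16.0 to 21.8 (0.629). In ORX 6, Gins2 was at 6.26 CPM against 2.99 to 4.20 (0.628) and Tk1 at 3.47 CPM against 1.07 to 1.58 (0.786). In ORX 5, Rrm2 was at 5.13 CPM against 3.66 to 4.03 (0.746), and in ORX 1, E2f1 was at 10.2 CPM against 13.7 to 15.4 (0.679). In intact 2, 3 genes stood high, namely Rrm2 at 3.40 CPM against 1.21 to 1.82 (0.721), Foxm1 at 8.33 CPM against 3.64 to 4.77 (0.758) and Kif11 at 2.80 CPM against 1.42 to 1.74 (0.768). In intact 1, Ube2c was at 2.33 CPM against 1.09 to 1.44 (0.714).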

How the results depend on the processing

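Over all genes the count of 878 was 1721 with DESeq2 and 2056 with limma voom, and 408 to 1280 when 1 library was left out. The 2 replication genes that passed became 4 with DESeq2 or limma voom, 1 without intact 4 and ORX 6 together, and 1 to 2 when 1 library was left out. The 4 mitosis genes became 8 with DESeq2 or limma voom, 1 with no filter on low counts, 1 without intact 4 and ORX 6 together, and 0 to 5 when 1 library was left out; each library but ORX 3 moved this count by more than 1.5 times. The 1 G1 regulator became 2 with DESeq2 or limma voom (Ccnd2 and Cdkn1a) and 0 to 2 when 1 library was left out. The 11 genes of the other lists became 20 with limma voom and 5 to 13 when 1 library was left out. RLE scaling and a filter of 1 CPM in 5 libraries left the counts of members that passed as they were. With the sample number as a replicate block (ORX 6 left out), 409 genes, 0 replication genes, 0 mitosis genes, 0 G1 regulators and 5 genes of the other lists passed. The labels do not say that numbers pair the samples, and the deviations of same-numbered libraries correlated at -0.28 to 0.18, with 1 of the 5 intact libraries closest to its own number. The direction was the same as reported in 810 of 840 refits of single members. The exceptions were members near 0. Under the replicate block these were Mcm2 (0.012), Cdc6 (-0.0326), Tyms (-0.0733) and Cenpe (0.0687), with limma voom Tyms (-0.0783) and Cenpe (0.000604), and without intact 4 and ORX 6 together Cdc6 (-0.19) and Tyms (-0.15). Over fits that each lacked 1 library, log2 values ran from -0.14 to 0.12 for Mcm2, -0.0567 to 0.24 for Cdc6, -0.0841 to 0.0737 for Cdt1, -0.0661 to 0.21 for Tyms, -0.18 to 0.36 for Ccne2, -0.0512 to 0.26 for Brca1, -0.41 to 0.11 for Cenpa, -0.32 to 0.10 for Cenpe, -0.0739 to 0.40 for Cenpf and -0.17 to 0.0452 for Ccnd1. The cause of these changes was not tested. Counts were lowest for Ccnb1 and Ttk, which did not pass in the fit without a filter either.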

Other observations

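Mcm6 varied between libraries unlike its partners in the helicase, a pattern chosen after its values were seen. Its level was 2.68 CPM in intact 4 and 6.19 CPM in ORX 3, which is 15.5% and 32.7% of the mean CPM of Mcm2, Mcm3, Mcm4, Mcm5 and Mcm7 in the same library. In the other 9 libraries this share ran from 49% (intact 1) to 107%. The low libraries come from both groups, and the cause was not tested.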
